A study of Mus musculus with 18 samples.

Results

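The mitochondrial iron-sulfur cluster assembly core was followed through 3 subsets of mouse CD8+ T cells, in libraries labelled cKO for Hspa9 and in wild-type (WT) libraries. Hspa9 encodes GRP75, a mitochondrial chaperone of the heat shock protein family, and cKO stands for its conditional knockout. The core was taken as 8 genes chosen by name, Nfs1, Lyrm4, Iscu, Glrx5, Isca1, Isca2, Nfu1 and Bola3, of 27830 genes that the deposited tables name in any subset. All 8 were present in the naive, effector and memory tables, and all 8 passed the filter on low values in each subset.

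The 6 groups were naive cKO, naive WT, effector cKO, effector WT, memory cKO and memory WT, with 3 libraries each and no treatment. Naive CD8+ T cells came from the lymph nodes and spleen of mice aged 8 weeks, and the effector and memory cells of both genotypes were derived from naive cells in culture, so neither formed in an animal. The driver of the deletion, the part of Hspa9 that it removes and the sex of the mice are not given in the sources used here. The labels do not say whether replicates of a group were separate mice or cultures, so the p-values measure the spread between these libraries, which may be technical.

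Iron-sulfur clusters are cofactors of respiratory complexes, aconitase, lipoyl synthase and several enzymes of DNA replication and repair. In mitochondria, the cysteine desulfurase Nfs1, held in its complex by the small protein Lyrm4 (also known as ISD11), supplies sulfur, and the new cluster forms on the scaffold Iscu. GRP75 and its partner Hscb then move the cluster from Iscu to the glutaredoxin Glrx5, and the late factors Isca1, Isca2, Nfu1 and Bola3 mature and deliver clusters to client proteins. Activated T cells draw on mitochondrial respiration and on DNA replication, and both use such clients.

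The A-type proteins Isca1 and Isca2, which act together in maturing clusters, include the gene called between the labels, and they were called in opposite directions between WT effector and naive cells, so the 250 bases before the RefSeq start of each gene are shown. They are read 5′ to 3′ on the gene's strand in build GRCm38.p6, at chr13:59769790-59770039 on the minus strand for Isca1 and chr12:84773020-84773269 on the plus strand for Isca2. Capitals mark an ETS-type word (ACTTCCGG), CCAAT boxes (CCAAT) and GC boxes (GGGCGG), each searched on both strands.
Isca1 promoter: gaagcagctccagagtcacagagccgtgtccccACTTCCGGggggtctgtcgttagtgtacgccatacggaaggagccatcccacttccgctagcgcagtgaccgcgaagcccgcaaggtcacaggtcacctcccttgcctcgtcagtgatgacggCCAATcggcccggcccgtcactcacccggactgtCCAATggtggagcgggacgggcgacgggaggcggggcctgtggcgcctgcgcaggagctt
Isca2 promoter: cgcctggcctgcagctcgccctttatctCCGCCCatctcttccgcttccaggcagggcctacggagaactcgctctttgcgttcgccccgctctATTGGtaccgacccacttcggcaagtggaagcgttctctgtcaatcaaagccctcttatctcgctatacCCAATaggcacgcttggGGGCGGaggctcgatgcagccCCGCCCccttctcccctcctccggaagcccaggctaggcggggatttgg
The Isca1 stretch held 1 ETS-type word, whose first base lies at position -217 from the start, 2 CCAAT boxes and 0 GC boxes. The Isca2 stretch held 0 ETS-type words, 2 CCAAT boxes and 3 GC boxes. In the tables' own coordinates (GRCm39) the nearest gene to Isca2, Npc2 on the opposite strand, lies 99 bases away, so this stretch may also hold the start of Npc2.

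RefSeq windows of 300 bases, which add the 50 bases after the start, were found for 7 of the 8 genes, 9 windows in all. The ETS-type word was present for 2 of the 7 genes, Isca1 and Nfs1, and in 3.89% of all 32851 windows. CCAAT boxes were present for 5 of 7 genes and in 37.4% of all windows, and GC boxes for 4 of 7 genes and in 35.7% of all windows. A gene with several windows, as Bola3 has, counts if any of them holds the word. Counted by window, as the shares are, the ETS-type word was in 2 of 9, CCAAT boxes in 6 of 9 and GC boxes in 6 of 9. The TATA word (TATAAA), the NRF1 palindrome, the ATF4-type word (TGATGNAA) and the cyclic AMP response word (TGACGTCA), on both strands, were in 0 of the 9 windows, against 13.6%, 0.971%, 3.97% and 1.79% of all windows in that order. These matches are letters in a window and were not set against the expression values.

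The targeted gene went against its label. Hspa9 averaged 6438 ± 284 normalised reads in naive libraries labelled cKO and 3992 ± 176 in naive WT libraries (SD, n = 3 each). The averages were 2340 ± 151 in effector libraries labelled cKO and 2093 ± 79.7 in effector WT libraries, and 5637 ± 160 in memory libraries labelled cKO and 4041 ± 119 in memory WT libraries. The log2 differences (cKO-labelled minus WT) were 0.69 (naive), 0.16 (effector) and 0.48 (memory), with limma adjusted p of 1.30e-05, 0.0335 and 0.00034. The effector call was lost without any 1 of cKO replicates 2 and 3 and WT replicates 1 and 3, at adjusted p up to 0.162, and in the fit of all 18 libraries, at 0.0988. The others held without any 1 library. The counts cover the whole gene, and whether a deleted allele still gives counted transcript is not known here, so every genotype direction below is that of the label.

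Other features of the libraries also moved with the label. The library totals ran from 14771251 to 18049774 reads. The 8 CD8 T cell markers, none of them at 0 in a whole group, summed to 5150 to 5281 CPM, reads scaled to the library total, in naive cKO-labelled libraries, against 5724 to 5895 in naive WT. The sums were 5542 to 5777 CPM in effector cKO-labelled libraries, against 6194 to 6317 in effector WT. They were 4290 to 4853 CPM in memory cKO-labelled libraries, against 5125 to 5546 in memory WT. Every cKO-labelled sum thus lay below every WT sum of its subset. Gene by gene, 0 of 8 were called higher and 6 lower in naive cells, and 0 higher and 3 lower in memory cells. In effector cells 1 was called higher and 2 lower, with a median log2 difference of 0.03, so the effector sum does not speak for each marker. All genes were called at 24.9% (naive), 20.1% (effector) and 19.1% (memory). In naive cells Xist gave 4109 to 4627 normalised reads in cKO-labelled libraries, against 14706 to 17632 in WT, and the Y-linked Ddx3y gave 2771 to 3056 in cKO-labelled libraries, against 0 in each WT library. In naive cells the label and this sex-linked difference therefore cannot be told apart. Ddx3y was not listed for effector or memory cells of either label. Differences of the genotype effect taken against naive cells, in effector less naive and memory less naive cells, therefore carry the same limit. In effector cells Xist gave 12388 to 12848 normalised reads in cKO-labelled libraries, against 13696 to 14930 in WT, and was called lower. In memory cells Xist gave 10152 to 17168 normalised reads in cKO-labelled libraries, against 13420 to 17598 in WT, and was not called. A list of 12 cell cycle genes summed to 309 to 332 CPM in naive cKO-labelled libraries, against 49.7 to 58.6 in naive WT. The sums were 2559 to 2672 CPM in effector cKO-labelled libraries, against 3536 to 3669 in effector WT, and 475 to 535 CPM in memory cKO-labelled libraries, against 365 to 377 in memory WT. The 11 myeloid markers summed to 137 to 152 CPM in effector cKO-labelled libraries, against 109 to 119 in effector WT, and to 263 to 357 CPM in memory cKO-labelled libraries, against 30.1 to 33.7 in memory WT. The 11 erythroid markers summed to 103 to 107 CPM in effector cKO-labelled libraries, against 16.2 to 17.9 in effector WT, and to 70.7 to 85.5 CPM in memory cKO-labelled libraries, against 27.8 to 37.9 in memory WT. For naive cells the myeloid sums were 6.98 to 8.48 CPM in cKO-labelled libraries, against 4.78 to 5.34 in WT. Of the 2 myeloid markers tested there, 0 were called. The naive erythroid sums overlapped, at 6.26 to 7.63 CPM in cKO-labelled libraries and 1.57 to 12.7 in WT. The 8 B cell markers summed to 18.0 to 19.9 CPM in naive cKO-labelled libraries, against 22.0 to 23.4 in naive WT. That naive sum does not speak for each marker. Of the 4 tested in naive cells, 2 were called higher and 1 lower, with a median log2 difference of 1.66. The sums were 45.7 to 47.8 CPM in effector cKO-labelled libraries, against 35.7 to 38.9 in effector WT. They were 159 to 175 CPM in memory cKO-labelled libraries, against 98.6 to 111 in memory WT. In memory cells 6 markers of naive T cells summed to 4270 to 4522 CPM in cKO-labelled libraries, against 5989 to 6248 in WT. There 6 markers of effector T cells summed to 315 to 355 CPM in cKO-labelled libraries, against 189 to 203 in WT. In naive cells the naive markers summed to 4544 to 4658 CPM in cKO-labelled libraries, against 4936 to 5014 in WT. The effector markers summed there to 54.2 to 60.3 CPM in cKO-labelled libraries, against 71.6 to 77.3 in WT. Gene by gene, however, 5 of these 6 were called higher and 1 lower in naive cells, with a median log2 difference of 2.01. In effector cells the naive markers summed to 768 to 804 CPM in cKO-labelled libraries, against 705 to 732 in WT. In these bulk libraries a smaller share of a cell type and less RNA per cell cannot be told apart, and the part of these differences in the results below was not tested.

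**Figure D1:**
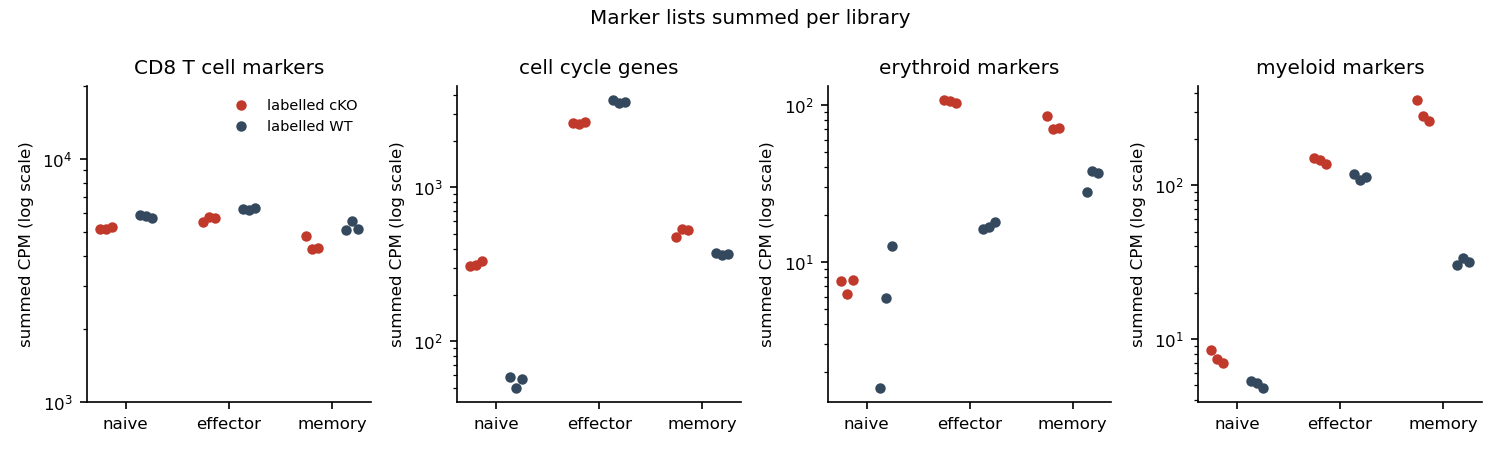
Summed CPM (log scale) of 4 marker lists in each of the 18 libraries, by subset and label, 1 point per library. The CD8 T cell sums lie between 4290 and 6317 CPM and are lower in cKO-labelled libraries of each subset. The cell cycle and myeloid sums separate the labels in each subset. The erythroid sums separate them in effector and memory cells and overlap in naive cells.

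Each assembly gene was first placed by its level. Levels are given as RPKM, reads scaled to the library total and to the length listed in the tables, since reads alone favour long genes, and the listed length was 10680 bases for Isca1 and 1838 to 4822 bases for the other members. Isca2 and Iscu held the top ranks in all 6 groups. Isca2 averaged 14.8 ± 1.75 RPKM in naive cKO-labelled libraries and 15.9 ± 1.29 in naive WT, 11.8 ± 0.87 in effector cKO-labelled libraries and 12.9 ± 0.50 in effector WT, and 14.3 ± 2.86 in memory cKO-labelled libraries and 13.0 ± 0.29 in memory WT. The scaffold gene Iscu averaged 11.4 ± 1.65 RPKM in naive cKO-labelled libraries and 12.2 ± 0.14 in naive WT, 13.2 ± 0.63 in effector cKO-labelled libraries and 12.0 ± 0.61 in effector WT, and 13.6 ± 0.78 in memory cKO-labelled libraries and 12.2 ± 2.83 in memory WT. The libraries of Isca2 and Iscu overlapped in naive cKO-labelled, effector WT and both memory groups. Isca2 stood above Iscu in naive WT, and Iscu stood above Isca2 in the effector cKO-labelled group.

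Glrx5, Nfs1, Nfu1 and Isca1 formed the middle of the order. Glrx5 stayed between group means of 8.10 and 8.68 RPKM, and Nfs1 between 7.43 and 9.01. Neighbours in this range often overlapped: Glrx5 and Nfs1 could not be ordered in 5 of the 6 groups. Isca1 had rank 6 of 8 in naive cKO-labelled libraries at 5.27 ± 0.35 RPKM, below Nfu1 at 7.78 ± 0.64, and had rank 5 in effector cKO-labelled libraries at 7.20 ± 0.16, above Nfu1 at 5.27 ± 0.62. Lyrm4 and Bola3 were lowest in every group. Lyrm4, the partner of Nfs1, averaged 2.43 ± 0.64 RPKM in effector cKO-labelled libraries and 2.03 ± 0.26 in effector WT, the only groups where it lay below Bola3 with no overlap.

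**Figure D2:**
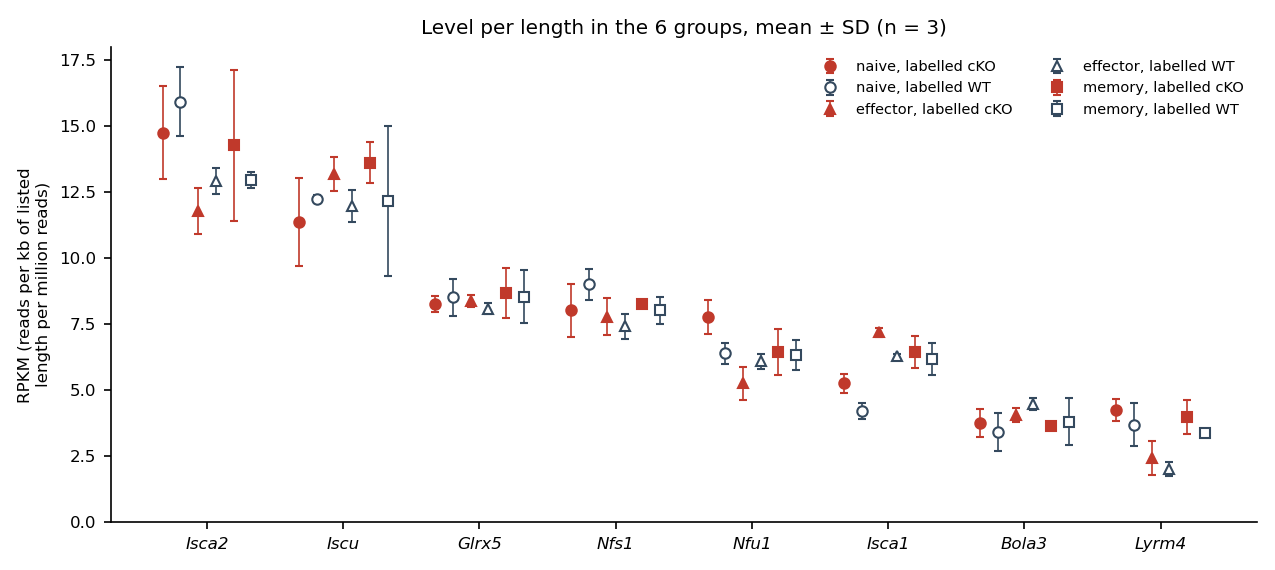
Level per length (RPKM, y axis) of the 8 assembly genes in the 6 groups; points are means of 3 libraries and bars are SD, filled for cKO-labelled and open for WT. Isca2 and Iscu lie highest, Bola3 and Lyrm4 lowest, and the lowest Lyrm4 means are 2.43 RPKM in effector cKO-labelled libraries and 2.03 in effector WT.

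The question of the genotype comparison was whether transcripts of the machinery that GRP75 serves differ between cKO-labelled and WT cells. Few differences were called. Of 24 tests, 8 genes in 3 subsets, 1 passed an adjusted p under 0.05 (limma on log2(normalised reads + 1), Benjamini-Hochberg over all genes tested). In naive cells 0 of 8 members were called while 24.9% of all genes tested were, in effector cells 1 of 8 against 20.1%, and in memory cells 0 of 8 against 19.1%. At an unadjusted p under 0.05 2 members stood out in naive cells against 37% of all genes, 2 in effector cells against 32.2% and 0 in memory cells against 31.8%. edgeR and DESeq2 on the recovered reads each called 0 members for naive cells, 1 for effector cells and 0 for memory cells. The members' median log2 difference was -0.07 (naive), 0.06 (effector) and -0.02 (memory), beside -0.01, -0.01 and -0.02 over all genes tested.

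**Figure D3:**
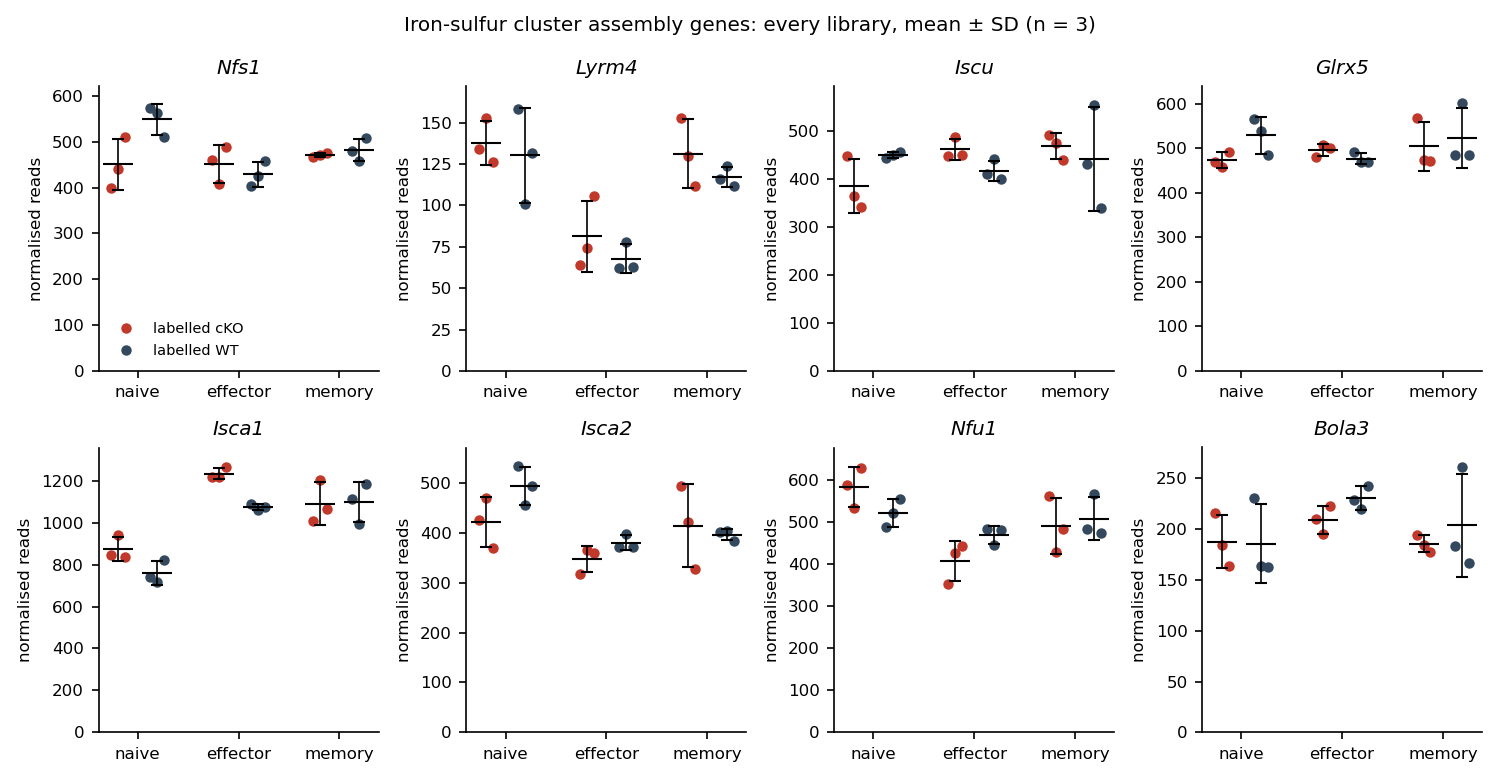
Normalised reads (y axis, from 0) of each assembly gene in every library, by subset, cKO-labelled left of WT; bars are the mean ± SD of 3 libraries. In effector cells the 3 cKO-labelled Isca1 points, at 1217 to 1265 reads, lie above the 3 WT points, at 1059.8 to 1089.

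The called change was in Isca1. In effector cells it gave 1218, 1217 and 1265 normalised reads in cKO-labelled libraries, against 1089, 1059.8 and 1073 in WT libraries. All 3 cKO-labelled libraries lay above all 3 WT libraries. The log2 difference was 0.20 ± 0.05 (SE; 95% interval 0.09 to 0.31), a 1.15-fold higher level, with a limma adjusted p of 0.00905; 10.7% of all genes were called higher in this comparison. The adjusted p was 0.122 when all 18 libraries shared 1 estimate of the spread, and it lay between 0.0154 and 0.045 when any 1 effector library was left out.

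Isca1 leaned the same way in naive cells, with values of 844, 940.002 and 835 normalised reads in cKO-labelled libraries, against 741, 715 and 822 in WT libraries. The groups did not overlap. Here the log2 difference of 0.20 (95% interval 0.02 to 0.38) had an adjusted p of 0.101 and was not called. In memory cells the values were 1007, 1202 and 1062 normalised reads in cKO-labelled libraries, against 1113, 995 and 1184 in WT libraries. These groups overlapped, with a log2 difference of -0.01 (95% interval -0.21 to 0.19). The genotype effect on Isca1 in effector cells less that in naive cells was -0.0026 (95% interval -0.23 to 0.23), and in memory less effector cells it was -0.21 (95% interval -0.44 to 0.02, adjusted p = 0.282).

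Isca2, the partner of Isca1, did not follow it. In effector cells it gave 318, 365 and 359 normalised reads in cKO-labelled libraries, against 372, 397 and 371 in WT libraries. The cKO-labelled libraries all lay below the WT libraries, yet the log2 difference of -0.13 (95% interval -0.31 to 0.05) was not called, at an adjusted p of 0.316. In naive cells Isca2 gave 426, 469 and 369 normalised reads in cKO-labelled libraries, against 532, 456 and 493 in WT libraries. The groups overlapped there, and the log2 difference was -0.23 (95% interval -0.47 to 0.00, adjusted p = 0.138). In memory cells it gave 493, 422 and 328 normalised reads in cKO-labelled libraries, against 401, 404 and 384 in WT libraries, and the WT values lay inside the wider cKO-labelled range. As a description, effector cKO-labelled libraries held 3.33 to 3.83 Isca1 reads for each Isca2 read, against 2.67 to 2.93 in effector WT libraries. In naive cells the ratio was 1.98 to 2.26 in cKO-labelled libraries, against 1.39 to 1.67 in WT, and in memory cells 2.04 to 3.24 in cKO-labelled libraries, against 2.46 to 3.09 in WT. The ratio was separate by label in naive and effector cells and overlapped in memory cells.

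The sulfur donor gene Nfs1 came nearest to a call in naive cells. It gave 399, 441 and 511 normalised reads in naive cKO-labelled libraries, against 574, 562 and 510.2 in naive WT libraries. The lowest WT library fell just under the highest cKO-labelled library, so the groups overlapped. The log2 difference was -0.29 (95% interval -0.52 to -0.06), with an adjusted p of 0.0638; it passed, at 0.0254, in the fit of all 18 libraries, and at 0.0169 without cKO naive replicate 3. In effector cells Nfs1 gave 459.6, 407 and 488 normalised reads in cKO-labelled libraries, against 404, 425 and 457 in WT libraries, with a log2 difference of 0.07 (95% interval -0.11 to 0.25). The effector effect less the naive effect was 0.36 (95% interval 0.09 to 0.64) and missed the threshold at an adjusted p of 0.0605. It passed, at 0.0154, 0.0448 and 0.0339, without cKO naive replicate 3, WT naive replicate 3 or cKO effector replicate 2. In memory cells the means were 472 ± 4.31 in cKO-labelled libraries and 482 ± 25.0 in WT.

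Lyrm4 had the fewest reads of the core and its widest intervals in naive and effector cells. Its means were 138 ± 13.4 normalised reads in naive cKO-labelled libraries and 130.3 ± 28.6 in naive WT, and 81.3 ± 21.6 in effector cKO-labelled libraries and 67.7 ± 8.78 in effector WT. In memory cells they were 131 ± 20.7 in cKO-labelled libraries and 117 ± 6.21 in WT. Its log2 differences were 0.10, 0.24 and 0.15 in naive, effector and memory cells. None was called, and the effector 95% interval ran from -0.19 to 0.66.

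The scaffold gene Iscu gave 448, 365 and 341 normalised reads in naive cKO-labelled libraries, against 443, 449 and 456 in naive WT libraries. Replicate 1 of the cKO-labelled group stood among the WT values, and the other two lay below them. The log2 difference was -0.23 (95% interval -0.47 to 0.00, adjusted p = 0.142), and it was called, at -0.35 and an adjusted p of 0.0469, without that replicate. In effector cells Iscu gave 446, 486 and 449 normalised reads in cKO-labelled libraries, against 409, 440.1 and 399 in WT libraries. The groups did not overlap, with a log2 difference of 0.15 (95% interval -0.02 to 0.31, adjusted p = 0.206). In memory cells WT replicate 2, at 553 normalised reads, stood above the other WT libraries at 431 and 338, and the cKO-labelled libraries, at 490, 475 and 438, lay within that range.

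Glrx5 accepts the cluster handed on from Iscu. Its means were 473 ± 18.3 normalised reads in naive cKO-labelled libraries and 529 ± 41.3 in naive WT, and 496 ± 13.4 in effector cKO-labelled libraries and 476 ± 12.8 in effector WT. In memory cells they were 504 ± 54.9 in cKO-labelled libraries and 524 ± 67.4 in WT. None of its log2 differences, -0.16, 0.06 and -0.05 in naive, effector and memory cells, was called, with adjusted p of 0.222 to 0.795.

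The delivery factors Nfu1 and Bola3 act next to lipoyl synthase and the respiratory complexes. Nfu1 gave 353, 427 and 443 normalised reads in effector cKO-labelled libraries, against 484, 445 and 481 in effector WT libraries. All cKO-labelled libraries lay below the WT libraries, and the log2 difference of -0.21 (95% interval -0.40 to -0.02) had an adjusted p of 0.107. In naive cells Nfu1 gave 587, 533 and 628 normalised reads in cKO-labelled libraries, against 487, 522 and 554 in WT libraries, with a log2 difference of 0.16 (95% interval -0.04 to 0.36). The groups overlapped there. The effector effect less the naive effect was -0.37 (95% interval -0.68 to -0.06, adjusted p = 0.0919), and it passed at -0.50 with library totals (adjusted p = 0.0203). Library totals moved the median of all genes by -0.12 in this comparison. Relative to that shift, the value lay close to -0.37. In memory cells Nfu1 averaged 491 ± 66.5 normalised reads in cKO-labelled libraries and 508 ± 51.7 in WT. Bola3 averaged 187 ± 26.0 normalised reads in naive cKO-labelled libraries and 185 ± 38.6 in naive WT, 209 ± 13.8 in effector cKO-labelled libraries and 229.9 ± 11.7 in effector WT, and 185 ± 8.35 in memory cKO-labelled libraries and 203 ± 50.4 in memory WT. Its log2 differences of 0.03 (naive), -0.14 (effector) and -0.11 (memory) were not called.

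**Figure D4:**
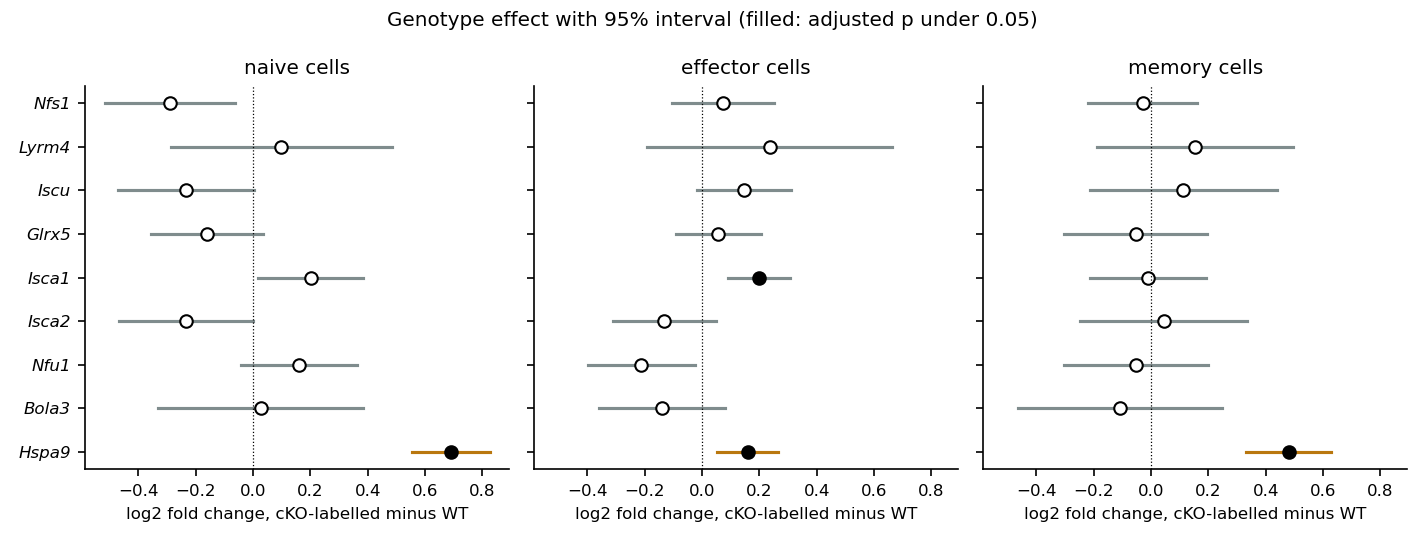
Log2 difference (cKO-labelled minus WT, x axis) with its 95% interval for the 8 assembly genes and Hspa9 in each subset; filled points have an adjusted p under 0.05. Among the 8 genes the filled point is Isca1 in effector cells at 0.20, while Hspa9 is filled in all 3 subsets at 0.69, 0.16 and 0.48.

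The 95% intervals of the 8 genotype differences reached from -0.52 to 0.48 for naive cells, from -0.40 to 0.66 for effector cells and from -0.46 to 0.50 for memory cells on the log2 scale. Libraries of the labels did not overlap for 1 member in naive cells, 4 in effector cells and 0 in memory cells, against 39.8%, 35.4% and 36.2% of all genes. Of the 4 in effector cells, Iscu and Isca1 were above WT and Isca2 and Nfu1 below it. The difference of the genotype effect between subsets was called for 0 of 8 members in effector less naive, memory less naive and memory less effector cells, against 18.5%, 16.9% and 8.71% of all genes by limma. Of these 24 differences, 3 had an unadjusted p under 0.05, those of Iscu, Nfs1 and Nfu1 in effector less naive cells, where 30.6% of all genes passed that level, and edgeR called 0 in each of the 3 comparisons.

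Scaling mattered in naive cells. With library totals in place of the deposited size factors, the median of all genes moved by 0.12 on the log2 scale, and Isca1 at 0.32 and Nfu1 at 0.28 were then called higher in naive cKO-labelled libraries, with adjusted p of 0.0151 and 0.0424. Relative to that shift, both lay close to their values under the deposited scaling.

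The subsets themselves were compared in WT cells, which asks how the core follows the passage of naive cells to effector and memory states (edgeR quasi-likelihood test on recovered reads, TMM). Effector cells differed from naive cells in 4 of 8 members while 70.1% of all genes were called, memory from naive cells in 2 of 8 against 39.2%, and memory from effector cells in 1 of 8 against 65%. Isca1 gave 68.0, 66.4 and 67.3 CPM in effector WT libraries, against 44.2, 42.3 and 48.7 in naive WT libraries. Every effector library stood above every naive library, with a log2 difference of 0.67 ± 0.08 (SE) and an adjusted p of 2.25e-07. Memory WT libraries gave 67.5, 59.0 and 71.8 CPM, also above all naive libraries, with a log2 difference of 0.60 ± 0.08 and an adjusted p of 4.24e-06.

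Lyrm4 fell in effector cells. It gave 3.89, 4.87 and 3.95 CPM in effector WT libraries, against 9.43, 5.97 and 7.81 in naive WT libraries, a log2 difference of -0.77 ± 0.18 (SE) with an adjusted p of 0.000947. Memory WT libraries gave 7.04, 7.34 and 6.76 CPM, above every effector library, with a log2 difference from effector cells of 0.69 ± 0.19 and an adjusted p of 0.00312. The memory and naive WT libraries overlapped, with a difference of -0.09 (95% interval -0.45 to 0.28).

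Bola3 was higher in effector WT libraries, at 14.3, 13.7 and 15.2 CPM, against 13.7, 9.67 and 9.62 in naive WT libraries. The lowest effector and the highest naive library nearly met, and the log2 difference of 0.48 ± 0.16 (SE, adjusted p = 0.0124) was not called without WT naive replicate 3, at 0.39 and 0.0634. Isca2 was lower, at 23.2, 24.8 and 23.3 CPM in effector WT libraries and 24.3, 23.96 and 23.3 in memory WT libraries, against 31.7, 27.0 and 29.2 in naive WT libraries. Its log2 differences of -0.21 and -0.25 had adjusted p of 0.0404 and 0.0277. Both calls were lost with DESeq2, at 0.126 and 0.0563, and without WT naive replicate 1, at 0.168 and 0.124. The fit of all 18 libraries called neither, at 0.115 and 0.0812. The effector call was also lost with median-of-ratios size factors (0.0601) and no filter on low values (0.0625), and without WT naive replicate 3, WT effector replicate 1 or WT effector replicate 3, and the memory call without WT memory replicate 1 or 3. Iscu, Glrx5 and Nfu1 were called in none of the 3 WT comparisons, and the 95% intervals of these 9 log2 differences lay between -0.28 and 0.32. Nfs1 was lower in effector than in naive WT cells by a log2 difference of -0.19 that was not called (adjusted p = 0.0632), and it was called at -0.28 with scaling to library totals (adjusted p = 0.00889) and without WT naive replicate 3 (0.0326) or WT effector replicate 3 (0.0463).

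Over the 18 libraries the 8 genes did not vary as 1 block. Pearson's r between 2 members, on log2(CPM + 1), was above 0 in 15 of 28 pairs, with a median of 0.09. The highest was 0.67 for Iscu and Glrx5, and the lowest was -0.50 for Isca1 and Nfu1. These points share subset, label and library preparation, so r is a description. The 8 genes together gave 226 ± 2.51 CPM in naive cKO-labelled libraries and 215 ± 7.47 in naive WT. Their sums were 229.8 ± 8.70 CPM in effector cKO-labelled libraries and 222 ± 1.15 in effector WT, and 238 ± 12.5 in memory cKO-labelled libraries and 227 ± 7.32 in memory WT. CPM uses library totals, which moved the median log2 genotype difference of all genes by 0.12 for naive cells. The shift was 0.07 for memory cells and -0.006 for effector cells. The members' median under the deposited scaling was -0.07 for naive cells and -0.02 for memory cells. The higher sums there are therefore not read as a rise of the core.

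The genes most like each member over the 18 libraries were found among 12553 genes tested in all 3 subsets. Isca1 ran closest to Suco (r = 0.98), Lyrm4 to Slc5a6 (0.92), Bola3 to Cfdp1 (0.87), Glrx5 to Trac (0.86), Isca2 to H2-Ke6 (0.83) and Iscu to Mrpl12 (0.80). Nfs1 with Scamp3 and Nfu1 with Alg3 reached r of 0.77 each. The mean of the standardised members ran closest to Rpl18-ps1 (0.81), Romo1 (0.79) and Cct7 (0.78). Romo1 overlaps Nfs1 on the opposite strand, which bears on how that likeness can be read.

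Neighbouring genes share sequence with 3 members. Nfs1 (ENSMUSG00000027618) lies on the minus strand at chr2:155965559-155986106 in GRCm39 and overlaps Romo1 on the plus strand. Isca1 (ENSMUSG00000044792) lies on the minus strand at chr13:59903223-59917624 and overlaps the long noncoding gene Etohd2 on the plus strand. Lyrm4 (ENSMUSG00000046573) lies on the minus strand at chr13:36162378-36301509 and overlaps Fars2, a mitochondrial tRNA synthetase gene on the plus strand, and 4 smaller entries. The strand setting of the counting is not given, so reads of these partners may not be separable where exons overlap. Entries on the same strand overlap too, whatever that setting. Summed over the 18 libraries, Gm28036 within Nfs1 had 12 reads and Gm49354 within Isca1 had 3. Of the smaller entries at Lyrm4, Tmed10-ps had 866 reads and Gm48765 had 11 on its strand. Summed over the 18 libraries, Isca1 had 18537 reads and Etohd2 2304, Nfs1 8536 and Romo1 3463, and Lyrm4 2012 and Fars2 4291. In effector cells the log2 difference of Etohd2 was 0.36 (95% interval -0.02 to 0.73, adjusted p = 0.175), beside the 0.20 of Isca1. In WT cells Etohd2 was lower in effector than in naive cells by -0.61 on the log2 scale, where Isca1 was higher, and Fars2 was 0.28 higher without a call (adjusted p = 0.056), where Lyrm4 was lower. In naive cells Romo1 fell by 0.50 on the log2 scale in cKO-labelled libraries (adjusted p = 0.0451), beside the -0.29 of Nfs1.

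The other 5 members overlap no gene in the tables. Iscu (ENSMUSG00000025825) lies at chr5:113910809-113916349, Isca2 (ENSMUSG00000021241) at chr12:84820025-84821862 and Glrx5 (ENSMUSG00000021102) at chr12:104998947-105009165. Bola3 (ENSMUSG00000045160) lies at chr6:83326129-83337118 and Nfu1 (ENSMUSG00000029993) at chr6:86986218-87005443, all on the plus strand.

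The rest of the iron-sulfur pathway was read from 5 lists, 74 genes in all with 1 gene in 2 lists. The first holds 16 mitochondrial partners, among them Hspa9. Of 16 tested in naive cells, 1 was higher in cKO-labelled libraries, Hspa9 itself, and 0 were lower, with a median of -0.02. In effector cells 2 of 15 were higher, Hspa9 and Slc25a37, and 1 lower, with a median of 0.04. The share of all genes called in either direction was 24.9% (naive), 20.1% (effector) and 19.1% (memory), so the 3 of 15 partners in effector cells were near it. Slc25a37, mitoferrin, which carries iron into mitochondria and is abundant in erythroid cells, averaged 1103 ± 30.0 normalised reads in effector cKO-labelled libraries and 816 ± 42.9 in effector WT, a log2 difference of 0.44 (adjusted p = 2.50e-05) beside the higher erythroid sum given above. Ndufab1, the mitochondrial acyl carrier protein that is part of the desulfurase complex, was lower by -0.35 (adjusted p = 0.0186). In memory cells 1 of 15 was higher, Hspa9, and 1 lower, with a median of 0.08. The lower gene was Hscb, the co-chaperone of GRP75, at 350, 308 and 332 normalised reads in cKO-labelled libraries, against 393, 441 and 398 in WT libraries. Its groups did not overlap, with a log2 difference of -0.32 ± 0.10 (SE) and a limma adjusted p of 0.0446. The adjusted p was 0.107 with library totals, 0.105 with DESeq2 and 0.127 in the fit of all 18 libraries. The call held in 1 of the 6 fits that each left out 1 memory library.

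Genes of cytosolic iron-sulfur assembly, which depends on mitochondrial export, fell in naive cells in 4 of 12 cases and rose in 0, with a median of -0.13, beside 24.9% of all genes called in either direction; edgeR and DESeq2 each called 3. Bola2, a partner of the glutaredoxin Glrx3, gave 272, 228 and 199 normalised reads in naive cKO-labelled libraries, against 449, 304 and 384 in naive WT libraries, with a log2 difference of -0.69 (adjusted p = 0.00755). The targeting factors Ciao1 and Ciao2b fell by 0.32 and 0.48, and the electron transfer protein Ciapin1 fell by 0.24, with adjusted p of 0.0156, 0.021 and 0.0457. With library totals 1 of 12, Bola2, was lower and 1 higher in naive cells. In effector and memory cells 0 of 12 were called by limma, edgeR or DESeq2, beside 20.1% and 19.1% of all genes by limma. At an unadjusted limma p under 0.05 there were 0 and 2 genes, against 32.2% and 31.8% of all genes. The medians were 0.03 and -0.01.

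The few mitochondrial client proteins that were called with the deposited scaling were lower. In naive cells 1 of 12 was called, beside 24.9% of all genes. It was the complex I subunit Ndufs7, which fell by 0.36, and the list's median was -0.15. With library totals 0 were lower and 1 higher. In effector cells 3 of 12 fell, beside 20.1% of all genes called, and DESeq2 called 2. The median was -0.10, and the genes were the complex I subunit Ndufs1, which fell by 0.17, the Rieske protein gene Uqcrfs1, which fell by 0.15, and Cdk5rap1, which fell by 1.26. Cdk5rap1, a radical enzyme that modifies mitochondrial tRNA, gave 125, 115 and 117 normalised reads in effector cKO-labelled libraries, against 293, 243 and 327 in effector WT libraries. It was also the 1 called gene of 12 in memory cells, at 171, 164 and 116 normalised reads in cKO-labelled libraries, against 344, 304 and 356 in WT libraries, and fell by 1.16 on the log2 scale (adjusted p = 0.000218). The list's median in memory cells was -0.06, and 19.1% of all genes were called there.

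The cytosolic and nuclear client proteins include many enzymes of DNA replication and repair. In naive cells 4 of 22 were higher and 2 lower, beside 24.9% of all genes called, with a median of 0.12, and with library totals 7 were higher and 0 lower. The mitotic motor gene Kif4 averaged 108 ± 8.79 normalised reads in naive cKO-labelled libraries and 18.8 ± 5.98 in naive WT, and the antiviral radical enzyme gene Rsad2 averaged 860.4 ± 75.1 in naive cKO-labelled libraries and 187 ± 16.5 in naive WT. Pole and Dna2 were the other higher genes. In effector cells 1 of 22 was higher and 7 lower, beside 20.1% of all genes, with a median of -0.07, and DESeq2 called 6 in all. The DNA polymerase genes Pole and Pold1 fell by 0.45 and 0.33, Kif4 by 0.41 and the helicase gene Brip1 by 0.42. In memory cells 5 of 22 were higher and 0 lower, beside 19.1% of all genes, with a median of 0.08, and DESeq2 called 3. Among the 5 were Dna2 at 0.84, Kif4 at 0.60, Rsad2 at 0.44 and Ercc2 at 0.40. The 12 cell cycle genes moved alongside: in cKO-labelled libraries 12 of 12 were higher for naive cells, 12 of 12 lower for effector cells and 5 of 12 higher for memory cells, and their part in the client list was not tested.

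The lipoate pathway, which Nfu1, Bola3 and Isca1 serve through lipoyl synthase, was called in few genes. In naive cells 1 of 12 was called, beside 24.9% of all genes. The lipoyl transferase gene Lipt1 was higher, at 0.60 (limma adjusted p = 0.0453). The list's median was 0.07, and DESeq2 called 0 of the 12. In effector cells 0 of 11 were called by limma, edgeR or DESeq2, beside 20.1% of all genes by limma. At an unadjusted limma p under 0.05 there were 2, against 32.2% of all genes, and the median was 0.00. In memory cells 1 of 12 was called, beside 19.1% of all genes. The mitochondrial fatty acid synthesis gene Oxsm fell by 0.52 (limma adjusted p = 0.0206), and the list's median was -0.07.

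Of 29 calls named in these lists, 14 held with each library left out in turn. The other 15 were lost without at least 1 library of their subset, with no change of sign. In naive cells these were Ciao1, Ciao2b, Ciapin1, Ndufs7, Dna2 and Lipt1. In effector cells they were Hspa9, Ndufab1, Ndufs1 and Uqcrfs1, and in memory cells Hscb, Kif4, Ercc2, Rsad2 and Oxsm. Ciapin1 was lost without any 1 of the 6 naive libraries.

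**Figure D5:**
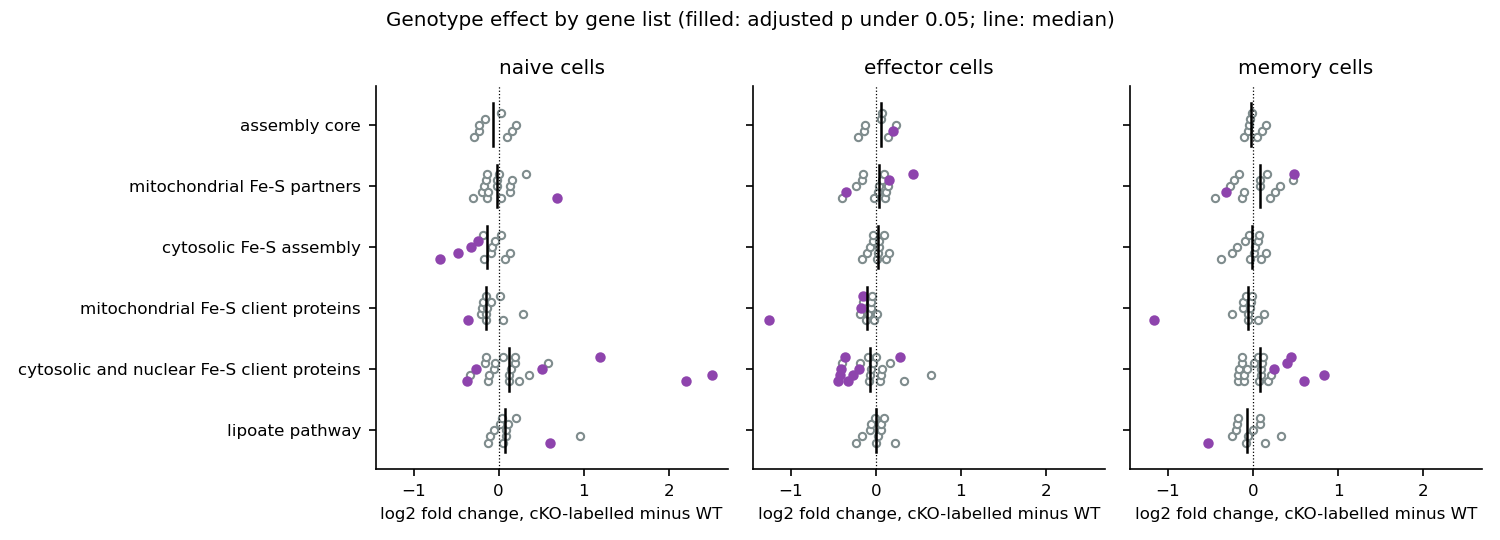
Log2 difference (cKO-labelled minus WT, x axis) of every tested gene of the assembly core and of 5 related lists in each subset; filled points have an adjusted p under 0.05 and vertical lines are medians. The core's medians are -0.07, 0.06 and -0.02, and the widest spread is that of the cytosolic and nuclear client proteins in naive cells.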

How the data were processed

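Poly-A RNA of 18 libraries, 3 per group, was analysed. Per the submitters' processing notes the build was GRCm39 and the tools included HISAT2 2.2.1 and DESeq2 1.42.0, besides fastp and featureCounts 2.0.6; their order, the annotation and the strand setting are not given in the sources used here. The authors deposited 1 table per subset with a normalised signal per gene and library, each the reads divided by 1 factor per library, and, per the file headers, a log2 fold change (WT over cKO) and its raw and adjusted p-value. Each table was scaled on its own. Dividing by the smallest positive value gave whole reads within 1e-05 for 100% of values, with totals of 14771251 to 18049774 reads. Counting error is widest for Lyrm4, with 60 to 157 reads per library.

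Within each subset, log2(normalised reads + 1) was fitted with limma's trend method (3.58.1, R 4.3.3). Genes needed 10 or more normalised reads in 3 or more libraries. Interactions were fitted over 18 libraries, and WT subsets with edgeR 4.0.16 (TMM) on recovered reads. Benjamini-Hochberg adjustment ran over all genes tested, called at 0.05. Other scalings, filters, pseudocounts, edgeR, DESeq2, a replicate block and leaving out each library were tried. Named genes were the 8 members, Hspa9, up to 4 called genes per list with the smallest adjusted p and the most alike genes; the overlapping genes were added after the values were seen. The members and lists were chosen with earlier results of these data known, and some genes of the pathway are not reported here and stand in no list. The tests were also run on simulated data in which few genes differed between groups. Far more genes differed between the WT subsets here, so no conclusion about those tests is drawn from it. Promoters came from RefSeq, GRCm38.p6. Same-numbered replicates are treated as unpaired.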

Additional observations from a re-analysis of the deposited data

Results flagged for a closer look

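The genotype effect was called as different between subsets for 0 of the 8 assembly genes. Nfs1, Iscu and Isca2 were called with single libraries left out. Nfu1 was called in effector less naive cells with library totals, which moved the median of all genes by -0.12 there. Among the genes named above, the effect was called as different for 12 other genes of the pathway, Hspa9 included (limma interaction terms, Benjamini-Hochberg over all genes). List genes that were not named also had such calls. For effector less naive cells the differences in log2 effect were -0.53 for Hspa9, 0.71 for Bola2, -1.004 for Brip1, -1.54 for Cdk5rap1, 0.60 for Ciao2b, -1.56 for Dna2 and -2.92 for Kif4. They were -0.45 for Pold1, -0.96 for Pole, -1.55 for Rsad2 and 0.63 for Slc25a37. For memory less naive cells they were -1.45 for Cdk5rap1, -1.91 for Kif4, -0.61 for Oxsm, -1.76 for Rsad2 and 0.39 for Slc25a37. For memory less effector cells they were 0.32 for Hspa9, 1.21 for Dna2, 1.01 for Kif4, 0.58 for Pold1 and 0.63 for Pole. These genes were named for a call in at least 1 subset, so the tests are not independent of that choice, and groups of 3 libraries were not tested for single outliers. The differences from naive cells also hold the sex-linked difference of the naive libraries given above.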

How the results depend on the processing

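Members called in naive cells were 2 with library totals and 1 in the fit of all 18 libraries. In effector cells that fit called 0 members and 1519 genes in all. Library totals called 1 member for effector less naive cells, and DESeq2 and the 18-library fit each called 1 member for WT memory against naive cells. Library totals turned the sign of 4 uncalled effects in memory cells, to 0.045 for Nfs1, 0.065 for Isca1, 0.021 for Glrx5 and 0.022 for Nfu1. Other pseudocounts, filters, TMM scaling and edgeR changed the sign of no member result that was followed. Those followed were the genotype effects within each subset and the member differences between subsets given singly above. Of their 327 values under all settings other than leaving out a library, 4 changed sign, 7 lost and 5 gained a call. The signs and calls of the other member differences between subsets were not followed 1 by 1. Scaling to totals of the WT comparisons was chosen after seeing the data. The causes were not tested.

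With any 1 library left out, members called ranged from 0 to 1 in naive cells, stayed at 1 in effector and 0 in memory cells, and ranged from 0 to 1 for effector less naive and memory less naive cells. They ranged from 1 to 2 in WT memory against naive and against effector cells. All genes called ranged from 2127 (without cKO naive replicate 2) to 3301 in naive and from 1830 (without WT memory replicate 3) to 3049 in memory cells. Uncalled effects crossed 0 in memory cells for Iscu (-0.064 to 0.29), Nfs1 (-0.066 to 0.009), Isca1 (-0.081 to 0.048), Isca2 (-0.090 to 0.20), Glrx5 (-0.14 to 0.050), Bola3 (-0.24 to 0.084) and Nfu1 (-0.15 to 0.041). They did so in naive cells for Lyrm4 (-0.072 to 0.25) and Bola3 (-0.076 to 0.19), for Isca1 in effector less naive cells (-0.061 to 0.052) and for Lyrm4 in WT memory against naive cells (-0.25 to 0.072).

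Deviations of same-numbered cKO-labelled and WT replicates from their group means had correlations from -0.33 to 0.16. Those of differently numbered replicates ran from -0.29 to 0.44. The numbers thus gave no sign of a pairing, but groups of 3 libraries cannot exclude structure shared across labels. With the replicate block 877 genes were called for memory less effector cells, and the count of members called changed in no comparison. Counting error is widest for Lyrm4, at 60 to 157 reads per library.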
